A study of Homo sapiens with 52 samples.

Results

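The transcripts described here encode the extracellular matrix that fibroblasts lay down besides collagen fibrils: elastin and its microfibrils, the enzymes that cross-link it, fibronectin and the matricellular glycoproteins, and proteoglycans. The set was a list of 37 genes out of 59408 in the tables, and 35 of them could be tested. It was chosen by name and function and by no rule on measured values, but with earlier results of these data known. mRNA-seq was performed on WI-38 cells, an established line of human lung fibroblasts that stops dividing after a limited number of doublings. Exposures lasted 24 h and were ended by washing. They were to the detergent SDS at 0.0090%, which damages the plasma membrane (PMD-Sen), to medium with KCl at 75 mM, which raises calcium influx (Ca-Sen), or to doxorubicin (DXR) at 250 nM, which starts the DNA damage response (DDR-Sen). Cells were sampled on 8 days after the washing, daily from D0 to D4 and then on D6, D8 and D16, where D is the day. The other groups were RS, cells passaged into replicative senescence without a treatment, and Untreated, young proliferating cells, which served as the reference of all 25 comparisons. All 26 groups were wild-type cells of the same line, with 2 libraries in each, so untreated cells are also younger in population doublings than RS. Untreated cells kept for the same days are not among the groups used here.

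Elastic fibres are built on microfibrils of fibrillin, onto which tropoelastin is laid with the help of fibulins and then cross-linked by lysyl oxidases. Latent TGF-beta binding proteins tether the growth factor TGF-beta to the same microfibrils in an inactive form. Matricellular proteins such as thrombospondins, tenascin C, SPARC and periostin bear little load but change how cells attach and migrate, and small leucine-rich proteoglycans such as decorin and lumican regulate the width and spacing of collagen fibrils. Fibroblasts are main makers of these proteins in the lung.

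Promoters of 4 genes with contrasting levels are shown as the 250 bases before the start of transcription in the RefSeq table (GRCh38.p14), 5′ to 3′ on the strand of the gene. All 4 windows lie outside annotated exons, and capitals mark CCAAT, its reverse complement ATTGG, or CACGTG, the E-box.
THBS1, chr15:39580829-39581078, plus strand: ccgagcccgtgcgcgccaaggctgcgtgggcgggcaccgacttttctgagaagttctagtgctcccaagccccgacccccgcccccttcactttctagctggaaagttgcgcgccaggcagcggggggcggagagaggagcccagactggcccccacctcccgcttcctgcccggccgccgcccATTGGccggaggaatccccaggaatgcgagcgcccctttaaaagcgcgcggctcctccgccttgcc
FBN2, chr5:128538246-128538495, minus strand: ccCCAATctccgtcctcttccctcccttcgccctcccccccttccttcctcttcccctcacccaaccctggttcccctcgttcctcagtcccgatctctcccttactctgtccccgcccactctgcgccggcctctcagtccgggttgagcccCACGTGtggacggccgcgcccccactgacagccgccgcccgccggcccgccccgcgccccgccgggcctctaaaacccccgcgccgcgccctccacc
PRELP, chr1:203475556-203475805, plus strand: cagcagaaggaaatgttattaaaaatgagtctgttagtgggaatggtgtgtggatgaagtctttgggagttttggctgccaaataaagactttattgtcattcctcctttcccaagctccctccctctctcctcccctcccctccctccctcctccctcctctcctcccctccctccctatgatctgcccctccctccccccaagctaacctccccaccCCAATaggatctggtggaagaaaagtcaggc
ASPN, chr9:92482507-92482756, minus strand: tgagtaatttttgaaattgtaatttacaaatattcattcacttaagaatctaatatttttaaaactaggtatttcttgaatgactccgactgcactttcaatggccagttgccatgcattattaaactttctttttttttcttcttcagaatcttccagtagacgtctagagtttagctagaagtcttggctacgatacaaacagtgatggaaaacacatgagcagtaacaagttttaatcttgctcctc
The windows of THBS1 and FBN2, both abundant in untreated cells, are rich in G and C (69.6% and 72.8%) and hold 24 and 25 CpG pairs. That of ASPN is 32.4% G and C with 3 CpG pairs, and that of PRELP is 52.8% with 0. PRELP and ASPN were low in untreated cells and had their highest level of any group on Ca-Sen D0. The 4 windows were picked for contrast, and whether G and C content goes with level over the other windows of the set was not tested. CCAAT was found on either strand in 32% of all 35116 promoter windows of the same length and in 10 of 42 windows of the set, which cover 29 of its 37 genes. CACGTG was found in 6.34% of all windows and in 1 of the set, that of FBN2. A match describes letters and not a bound site.

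The tables hold group means and no value of a single library, so each level below is the mean normalised count of the 2 libraries of a group, and its error is given by the standard error (SE) of the log2 fold change against untreated cells. A gene was called higher or lower where the adjusted p of the DESeq2 Wald test was under 0.05. The untreated libraries were estimated at 15.4 M and 18.8 M counted reads and those of the other groups at 19.1 M to 58.0 M. All 9 fibroblast markers passed the filter on low values, and their summed level ran from 233927 on Ca-Sen D0 to 576479 on Ca-Sen D8, beside 559824 in untreated cells. The 8 smooth muscle markers, several of which activated fibroblasts also make, summed to 32409.8 in untreated cells and to between 10941 (PMD-Sen D0) and 48050.5 (PMD-Sen D2), with the defining MYH11 at 0.102 in untreated cells. On PMD-Sen D0 6 of the 7 of them tested were lower and 0 higher, and 6 of the 9 fibroblast markers were lower and 1 higher. The part of these markers in the results of that day was not tested. The 8 leukocyte markers summed to between 22.7 and 210.1, the latter in RS and mostly CD14 (197). CD14 was 21.4 in untreated cells, but 200.5 on Ca-Sen D8, 189.3 on PMD-Sen D16 and 180.1 on DDR-Sen D16. PTPRC went from 0.209 in untreated cells to between 13.1 and 19.4 on the DDR-Sen days, and CSF1R from 6.73 to 41.6 on PMD-Sen D1. TYROBP stayed under 1 in every group. The 8 endothelial markers summed to between 1418 and 5846, mostly TEK. CDH5 was 0 in untreated cells, while PECAM1 went from 2.17 there to 106 on Ca-Sen D0 and ESAM from 7.35 to 81.6. The 8 epithelial markers summed to between 2152 and 4541. In untreated cells CDH1 was 0.231, but KRT18 was 1358, KRT19 968, KRT8 541 and MUC1 185. Ca-Sen D8 stood apart from its neighbouring days, with 15.5% of all genes tested called higher and 17.8% lower, against 4.72% and 5.53% on D6. In RNA of whole cultures, fewer cells that make a transcript and less of it per cell cannot be told apart.

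Per kb of exon, untreated cells held most fibronectin (FN1), at 13191 normalised counts per kb, followed by SPARC (10872 per kb) and THBS1 (10127 per kb). LTBP1 (3512), LOXL2 (3316), EMILIN1 (2854) and DCN (2359.8) came next on this scale. The length used is that of all annotated exons of a gene merged, 12847 bases for DCN. Merged exons can be longer than any 1 transcript, so this order need not be that of transcript numbers. Elastin was low in these cells, at 40.6 per kb, under its microfibril partners FBN1 (1310.2) and FBN2 (859.9). At the bottom stood PRELP (7.41), MFAP5 (1.52), ASPN (1.05), TNXB (0.268) and OGN (0.0506). The tables give no error for the level of 1 group, so neighbours in this order such as THBS3 (93.0) and THBS2 (90.6) cannot be ranked.

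**Figure D1:**
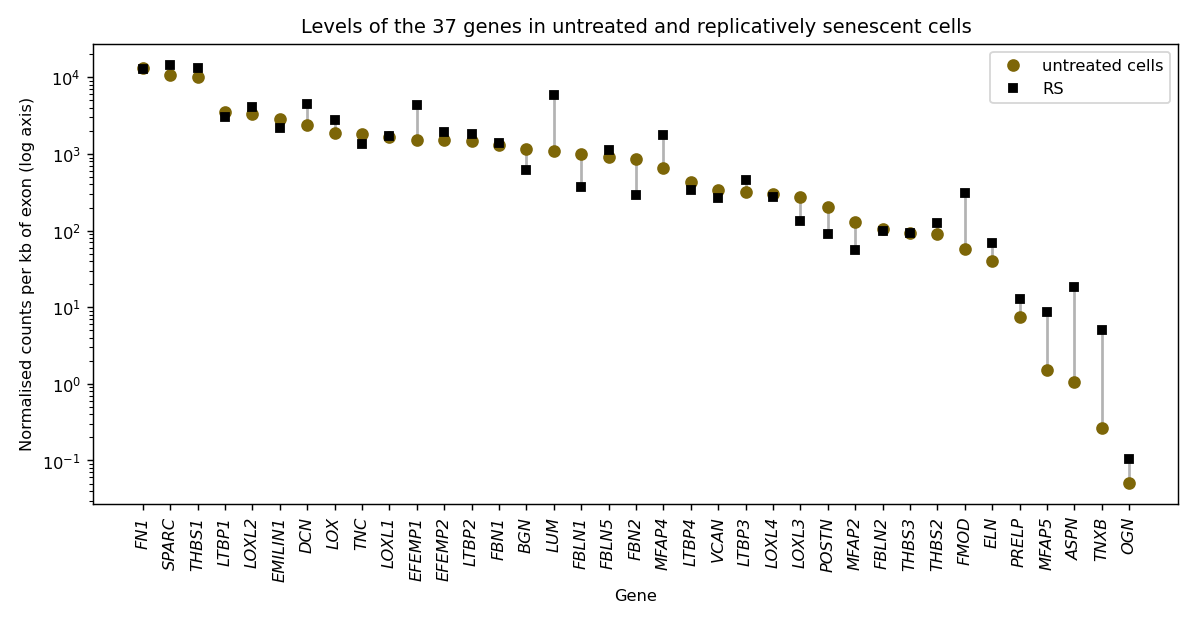
Level of each of the 37 genes in untreated cells (circles) and in RS (squares), as normalised counts per kb of merged exons on a log axis, ordered by the untreated level, with no error shown. FN1, SPARC and THBS1 lead in both groups, and LUM stands at 1104 in untreated cells and 5817 in RS.

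MFAP5 (a microfibril-associated glycoprotein) and OGN (osteoglycin) could not be tested, since their mean over the 26 groups was under 10 normalised counts. MFAP5 stood at 5.89 in untreated cells and 33.8 in RS, and OGN at 0.168 in untreated cells and at most 3.52 elsewhere, with several groups listed at 0. TNXB (tenascin X), at 4.27, and ASPN (asporin), at 2.60 in untreated cells, passed only through the groups in which they were high, and TNXB shares long stretches with a near-identical partial copy, TNXA, so that its counts are uncertain. Counting by strand is not given in the sources used here, and 22.2% of the exon bases of THBS3 and 14.3% of those of LOXL3 are overlapped on the other strand by AC234582.1 and HTRA2, whose reads could not then be told apart. For the other genes of the set an overlap with any single gene covered less than 10% of the exon bases.

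After SDS more of the called genes were lower than higher on every day from D0 to D8, and on D16 more were higher than lower. On PMD-Sen D0, 3 of the 35 genes were higher and 13 lower, beside 19.8% and 20.2% of all 14876 genes tested. LOX, FMOD and THBS2 were the higher ones, and PRELP, LOXL1 and THBS1 had fallen most. A day later 2 were higher, LTBP2 and VCAN, and 21 lower (all genes, 9.65% and 10%). 5 of 7 smooth muscle, 5 of 9 fibroblast and 3 of 5 epithelial markers tested were lower on that day as well, and 1, 0 and 1 were higher. On D2 6 of 9 fibroblast markers were lower and 2 higher, but 5 of 7 smooth muscle markers were higher and 1 lower. The part of these markers in the results was not tested. PMD-Sen D2 had 1 higher and 20 lower (8.81% and 7%), and D3 had 2 and 13 (5.43% and 6.07%). The counts were 4 and 12 on D4 (7.33% and 8.39%), 4 and 6 on D6 (5.79% and 6.98%), and 4 and 8 on D8 (5.75% and 6.05%). On PMD-Sen D16 8 were higher, led by TNXB, FMOD and EFEMP1, and 3 lower, ELN, TNC and VCAN (9.64% and 11.6%). TNXB and ASPN are counted here although they could pass the filter only through groups in which they were high, and without them 7 of 33 were higher. The median log2 fold change of the 35 genes was −0.48 on D1 and −0.12 on D16, beside −0.0011 and 0.0060 for all genes tested.

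More genes of the set were called on Ca-Sen D0 than in any other of the 25 comparisons. On that day 9 of the 35 were higher, led by ASPN, TNXB and TNC (7 without TNXB and ASPN), and 19 lower, led by LOXL1, FBN2 and LTBP1, beside 23.6% and 26.6% of all genes. Of 7 smooth muscle markers tested 5 were lower on that day and 2 higher, and of 9 fibroblast markers 5 were lower and 3 higher. Of 5 epithelial markers tested 3 were higher and 1 lower, and of 5 endothelial markers 2 and 1. The endothelial ones called higher, PECAM1 and ESAM, passed the filter on low values only through this group. The part of all these cell type markers in the result was not tested. The counts of the set fell to 7 (6 without ASPN) and 9 on D1 (5.37% and 7.15%) and 4 and 6 on D2 (1.77% and 2.57%). Falls prevailed on D3, at 2 higher and 14 lower (4.77% and 5.72%), and on D4, at 2 and 16 (4.99% and 7.04%). Ca-Sen D6 had 2 and 6 (4.72% and 5.53%). Ca-Sen D8 turned the other way, with 14 higher (13 without TNXB) and 7 lower (15.5% and 17.8%). Ca-Sen D16 had 4 higher, led by TNXB, LUM and DCN (3 without TNXB and ASPN), and 11 lower, led by ELN, BGN and POSTN (5.79% and 6.09%).

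With DXR more genes were higher than lower on D0, and more were lower than higher on every later day. DDR-Sen D0 had 9 genes higher, led by THBS2, LOXL4 and VCAN, and 5 lower, led by LOXL1, LOXL3 and THBS1, beside 13% and 14.9% of all genes. 4 of 7 smooth muscle markers tested were lower and 1 higher on that day, and 5 were lower and 0 higher on D1. Of 9 fibroblast markers 5 were lower and 0 higher on D2, 6 and 0 on D4, and 5 and 1 on D6. On D16 4 were lower and 4 higher. The part of these markers in the results was not tested. For the set, D1 had 7 higher and 9 lower (8.52% and 11%), D2 had 2 and 10 (5.19% and 7.49%), and D3 had 2 and 9 (4.72% and 6.88%). The counts were 4 and 14 on D4 (7.93% and 10.5%), 5 and 14 on D6 (10.7% and 13.8%), and 5 and 13 on D8 (10.3% and 11.8%). By DDR-Sen D16 10 were higher, led by ASPN, TNXB and FMOD (8 without TNXB and ASPN), and 14 lower, led by ELN, POSTN and FBN2 (13.2% and 16.7%). In RS 7 were higher, led by ASPN, FMOD and LUM (6 without ASPN), and 5 lower, led by FBLN1, MFAP2 and POSTN (11.6% and 11.6%). Each of the 35 genes was called in at least 1 of the 25 comparisons, and 25 of them with a log2 fold change of 1 or more in size. These 2 counts were not made over all genes tested, so they do not set the 35 genes apart.

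**Figure D2:**
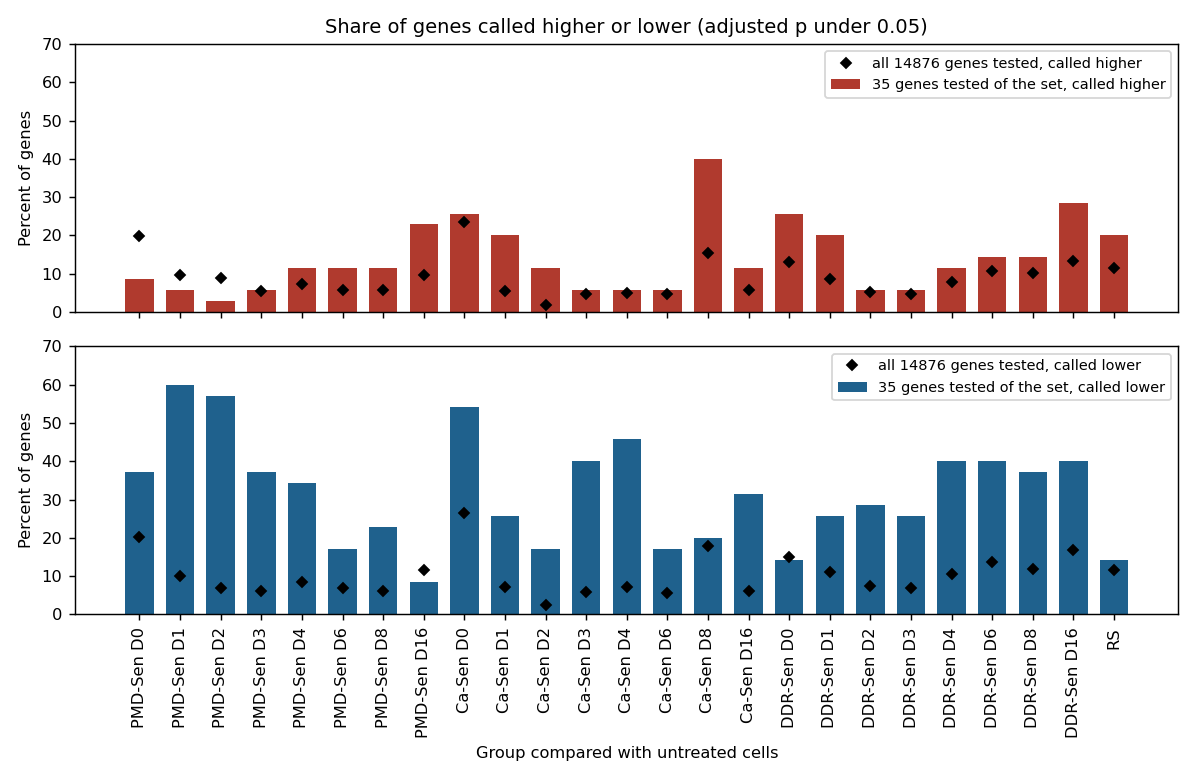
Bars give the percent of the 35 genes tested that were called higher (upper panel) or lower (lower panel) than in untreated cells in each of the 25 groups, and diamonds the same percent over all genes tested. The bars of genes called lower stand at 60.0% on PMD-Sen D1 over a diamond at 10%, and in RS at 14.3% over a diamond at 11.6%.

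**Figure D3:**
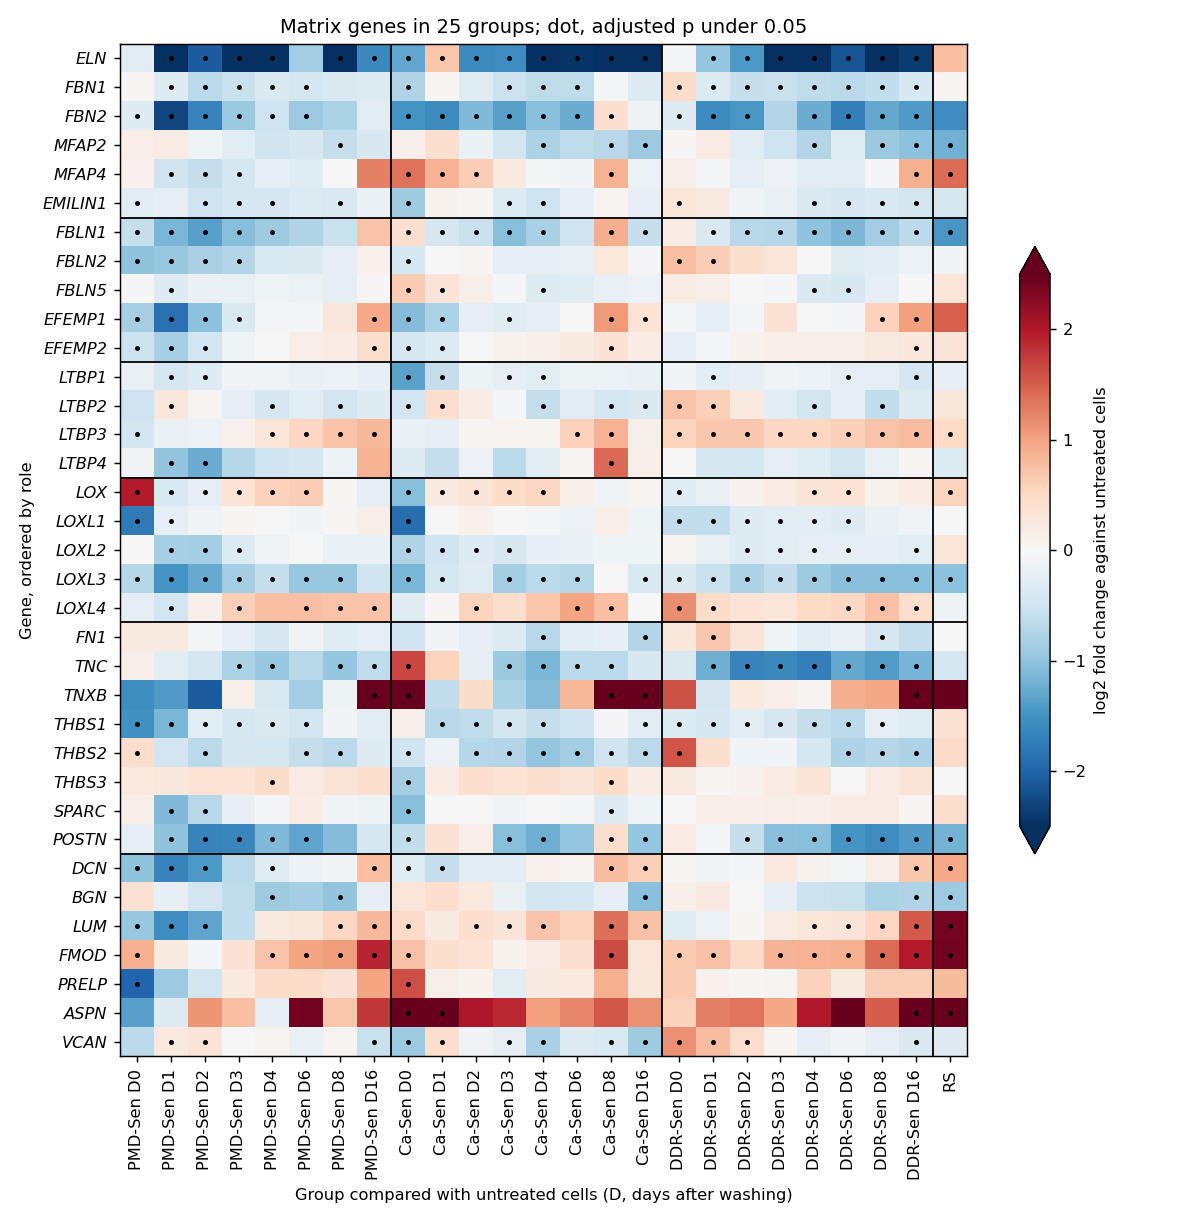
Log2 fold change against untreated cells (red higher, blue lower, colours held beyond the ends of the scale) of the 35 genes tested in 25 groups, ordered by role with lines between roles, and a dot where the adjusted p was under 0.05. ELN and FBN2 are blue in most columns, called lower in 20 and 19 of them, and FMOD is called higher in 15.

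Elastin (ELN, chr7:74027789-74069907 in GRCh38), the elastic core of the fibre, fell after all 3 treatments, and stood at 266 normalised counts in untreated cells. After SDS its levels were 220.4, 28.1, 62.6, 37.4, 28.2, 146, 32.5 and 87.2 in order of days. The fall was called on D1 to D4, D8 and D16, and was largest on D1 (−3.24 ± 0.36, adjusted p 7.81e-18). On D6 the SE of 1.17 was 3.45 times its median over the comparisons, and the change was not called. After KCl the levels were 109, 419.7, 87.7, 89.9, 15.9, 48.7, 17.2 and 31.9. ELN was thus higher on D1 (0.66 ± 0.23, a call lost without the filter on low values) and lower on every other day, with the lowest level of any group on D4 (−4.06 ± 0.38, adjusted p 2.93e-23). After DXR the levels were 261, 135, 98.1, 38.4, 25.7, 59.2, 29.5 and 51.6, and all days from D1 were called lower. RS had the highest mean of any group, 445, but with so large an SE the difference did not pass the test (0.74 ± 0.89).

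FBN1, the fibrillin that forms the backbone of microfibrils, was 21037 in untreated cells and ranged from 12518 on Ca-Sen D0 to 29024 on DDR-Sen D0. It was called lower in 16 comparisons and higher in 1, never by 1 or more on the log2 scale. FBN2, the fibrillin best known from developing tissue, was called lower in 19 and higher in 1. From 11347 in untreated cells it went to 9112, 2339.9, 3590.2, 5974, 7881, 6008, 6525 and 9508 over the 8 days after SDS. The fall on PMD-Sen D1 was its largest (−2.28 ± 0.090, adjusted p 3.46e-136), and D8 and D16 were not called. After KCl it lay between 3791 and 5493 from D0 (−1.49 ± 0.089) to D6, all called lower, and rose to 15187 on D8 (0.42 ± 0.078). After DXR it was 3829 on D1 and 4274 on D16 (−1.41 ± 0.13). RS had 3859, with an SE 6.31 times the median of the gene, and was not called (−1.56 ± 0.62).

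MFAP4, a glycoprotein bound to elastin and fibrillin, was called higher in 6 comparisons and lower in 3, with the lowest level on PMD-Sen D2 (940.5, −0.60 ± 0.13). It was 1426 in untreated cells and 3657 on Ca-Sen D0 (1.36 ± 0.11), and was also higher on Ca-Sen D1, D2 and D8. It rose to 2654 on DDR-Sen D16 (0.90 ± 0.15) and to 3754 in RS (1.40 ± 0.20, adjusted p 7.64e-11). PMD-Sen D16 had 3389.7, not called (1.25 ± 0.56). MFAP2, which sits on fibrillin, was called lower in 8 comparisons, all from D4 on or in RS, where it was 162 against 374 (−1.21 ± 0.36). EMILIN1, found where elastin meets the microfibril, was called lower in 12 comparisons and higher in 1, DDR-Sen D0 (this call and that on PMD-Sen D0 were not made by the deposited adjusted p), with its lowest level on Ca-Sen D0 (6075 against 11298, −0.90 ± 0.10). On DDR-Sen D16 5 of the 6 genes tested in this role were lower and MFAP4 was higher (all genes, 16.7% lower and 13.2% higher).

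Fibulins bring elastin to the microfibril. On PMD-Sen D1 all 5 were called lower, beside 10% of all genes (FBLN5 not with scaling by totals). On PMD-Sen D16 2 of them, EFEMP1 and EFEMP2, were higher (all genes, 9.64%). EFEMP1 (fibulin-3, chr2:55865967-55924139) had the widest range of them, with 6108 in untreated cells. Its levels after SDS were 3433, 1680.3, 3010.5, 4750.5, 5919, 5879.9, 7423 and 11797. It was thus lower from D0 to D3, most on D1 (−1.86 ± 0.11, adjusted p 2.45e-61), and higher on D16 (0.95 ± 0.22, adjusted p 0.000224). After KCl it went from 2885 on D0 (−1.08 ± 0.084) to 12804 on D8 (1.07 ± 0.069). After DXR it was higher on D8 (9082, 0.57 ± 0.093) and D16 (12485, 1.03 ± 0.14). RS had the highest mean, 17249.8, and was not called (1.50 ± 0.62).

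FBLN1, a fibulin of elastic fibres and basement membranes, was called lower in 18 comparisons and higher in 2. It was 7312 in untreated cells, 2869.5 on PMD-Sen D2 (−1.35 ± 0.11) and 2670.2 in RS (−1.45 ± 0.24, adjusted p 2.17e-08). Ca-Sen D8, at 13802, was its highest level (0.92 ± 0.11). PMD-Sen D16, at 12015, was not called, with an SE of 0.58, which was 4.75 times the median of the gene. FBLN5 and EFEMP2 (fibulin-4), both needed to assemble elastic fibres, changed by less than 1 on the log2 scale where called. FBLN5 rose to 7114 on Ca-Sen D0 from 4576 (0.64 ± 0.082). EFEMP2 fell to 4711 on PMD-Sen D1 from 8319 (−0.82 ± 0.083) and was higher on PMD-Sen D16, Ca-Sen D8 and DDR-Sen D16. FBLN2 stood on both sides of its untreated level of 502 on D0, at 251 after SDS (adjusted p 4.53e-05) and 846 after DXR (0.75 ± 0.18).

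Among the latent TGF-beta binding proteins, LTBP3 was called higher in 15 comparisons and lower in 1, and LTBP1 lower in 9 and never higher. LTBP3 was 3332 in untreated cells, 2429.6 on PMD-Sen D0 (−0.46 ± 0.11) and 5873 on PMD-Sen D16 (0.82 ± 0.15). All 8 days after DXR lay between 4748 and 5679.9 and were called higher, as was RS (4704, 0.50 ± 0.14). LTBP1 had its highest level in untreated cells, 25741, and fell most on Ca-Sen D0 (10129.6, −1.35 ± 0.10, adjusted p 6.5e-42). LTBP2, which binds fibrillin but not TGF-beta, was higher on DDR-Sen D0 (22027 against 13517, 0.70 ± 0.13) and lower on DDR-Sen D8 (8843, −0.61 ± 0.12). LTBP4 had a median SE of 0.38, and 3 of its comparisons were called. It was lower on PMD-Sen D1 (−0.98 ± 0.37) and D2 (1501 against 3528, −1.23 ± 0.39), and higher on Ca-Sen D8 (9426, 1.42 ± 0.38, adjusted p 0.000861).

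Lysyl oxidases cross-link elastin and collagen, and on D0 their genes went both ways after SDS and DXR but not after KCl. Of the 5 genes 1 was higher and 2 lower on PMD-Sen D0 (all genes, 19.8% and 20.2%), and 1 and 3 on DDR-Sen D0 (13% and 14.9%). On Ca-Sen D0 0 were higher and 4 lower (23.6% and 26.6%). LOX (chr5:122063195-122078360), the founding member, stood at 10439 in untreated cells and 41356 on PMD-Sen D0, 3.96 times as high (1.99 ± 0.087, adjusted p 1.34e-111). From D1 to D16 its levels were 7986, 8862, 13171, 15510.5, 16052, 10681 and 8839. It was thus lower on D1 and D2 and higher again from D3 to D6. On Ca-Sen D0 it fell to 4962 (−1.07 ± 0.088, adjusted p 2.88e-32) and on DDR-Sen D0 to 8458 (−0.30 ± 0.11). Later it was higher on Ca-Sen D1 to D4, on DDR-Sen D4 and D6, and in RS (15442, 0.56 ± 0.20, lost without the filter on low values).

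LOXL1, the member tied to the upkeep of elastic fibres, fell on D0 in all 3 treatments. From 6125 it went to 1799 on PMD-Sen D0 (−1.77 ± 0.11, adjusted p 2.2e-51), to 1663 on Ca-Sen D0 (−1.88 ± 0.10, adjusted p 2.47e-76) and to 3996 on DDR-Sen D0 (−0.62 ± 0.11). On D1 it was 5141 after SDS, still lower, and 6049 after KCl, while after DXR it was lower up to D6. LOXL3 was lower in 22 of 25 comparisons and higher in none, from 1185 down to 425 on PMD-Sen D1 (−1.47 ± 0.17), 919.7 on DDR-Sen D0 (−0.37 ± 0.14) and 583 in RS (−1.02 ± 0.27). LOXL4 rose in 12 comparisons, most on DDR-Sen D0 (2450.1 against 1093, 1.16 ± 0.17, adjusted p 5.46e-10). LOXL2 was called lower in 12 comparisons, most on PMD-Sen D2 (10562 against 18923, −0.84 ± 0.087). On PMD-Sen D1 all 5 lysyl oxidase genes were lower (all genes, 10%), LOXL1 and LOXL4 not with scaling by totals.

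FN1, fibronectin, on which cells assemble much of the other matrix, was called in few comparisons, each time by less than 1 on the log2 scale. It was 228401 in untreated cells, 364175 on DDR-Sen D1 (0.67 ± 0.12) and 136758 on Ca-Sen D16 (−0.74 ± 0.22), with 1 comparison called higher and 3 lower. TNC (chr9:115019578-115118257), an anti-adhesive glycoprotein of wounds, was higher on D0 after KCl and not after SDS or DXR. From 17831 in untreated cells it stood at 56665 on Ca-Sen D0 (1.67 ± 0.25, adjusted p 4.74e-10), and at 26288, 15309, 9403, 8091, 11119, 11206 and 13567 over the later days. After DXR its levels were 13926, 7700.4, 5613, 5869.8, 5447, 7329, 6742 and 8003, all called lower from D1 and lowest on D4 (−1.71 ± 0.31). After SDS it was 19822 on D0, not called (0.15 ± 0.13), and was lower on D3, D4, D8 and D16, at between 9103 and 11433.

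THBS1, thrombospondin 1, which can activate latent TGF-beta, was called lower in 18 comparisons and higher in none. From 92742 it went to 32276 on PMD-Sen D0 (−1.52 ± 0.37, adjusted p 0.000181) and 42118 on D1 (−1.14 ± 0.084, adjusted p 2.8e-39). The SE on PMD-Sen D0 was 3.78 times its median. Ca-Sen D0, at 102034, was not called (0.14 ± 0.10), while Ca-Sen D1 to D4 and DDR-Sen D0 to D4 lay between 57300 and 77768 and were all lower. THBS2, whose product binds proteases and limits vessel growth, was higher on D0 after DXR and SDS. It was 581 in untreated cells, 1719 on DDR-Sen D0 (1.56 ± 0.20, adjusted p 5.06e-13) and 784 on PMD-Sen D0 (0.43 ± 0.18, a call that the deposited adjusted p did not make). In 13 other comparisons it was lower, down to 295 on Ca-Sen D4 (−0.98 ± 0.20). THBS3 was higher in 2 comparisons and lower on Ca-Sen D0 (239 against 429.8, −0.85 ± 0.19).

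SPARC, a collagen-binding glycoprotein, was called lower in 4 comparisons and higher in none. It was 52523 in untreated cells, 24508 on PMD-Sen D1 (−1.10 ± 0.10, adjusted p 6.15e-28) and 25226 on Ca-Sen D0 (−1.06 ± 0.088, adjusted p 1.52e-31). All DDR-Sen days lay between 53133 and 60353, none of them called. POSTN, periostin, a TGF-beta target of remodelling tissue, was called lower in 16 comparisons and higher on Ca-Sen D8 (1515, 0.43 ± 0.14). It was 1122 in untreated cells, 353 on PMD-Sen D2 (−1.67 ± 0.16), 573 on Ca-Sen D16 (−0.97 ± 0.16), 421 on DDR-Sen D16 (−1.41 ± 0.18) and 493 in RS (−1.19 ± 0.22). TNXB was higher in 5 groups, at 81.5 on Ca-Sen D0 (4.31 ± 0.78), 64.7 on Ca-Sen D8, 56.1 on Ca-Sen D16, 35.5 on PMD-Sen D16 (3.09 ± 1.00) and 25.6 on DDR-Sen D16, the last lost without the filter on low values. RS had 79.9, not called (4.23 ± 1.84).

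**Figure D4:**
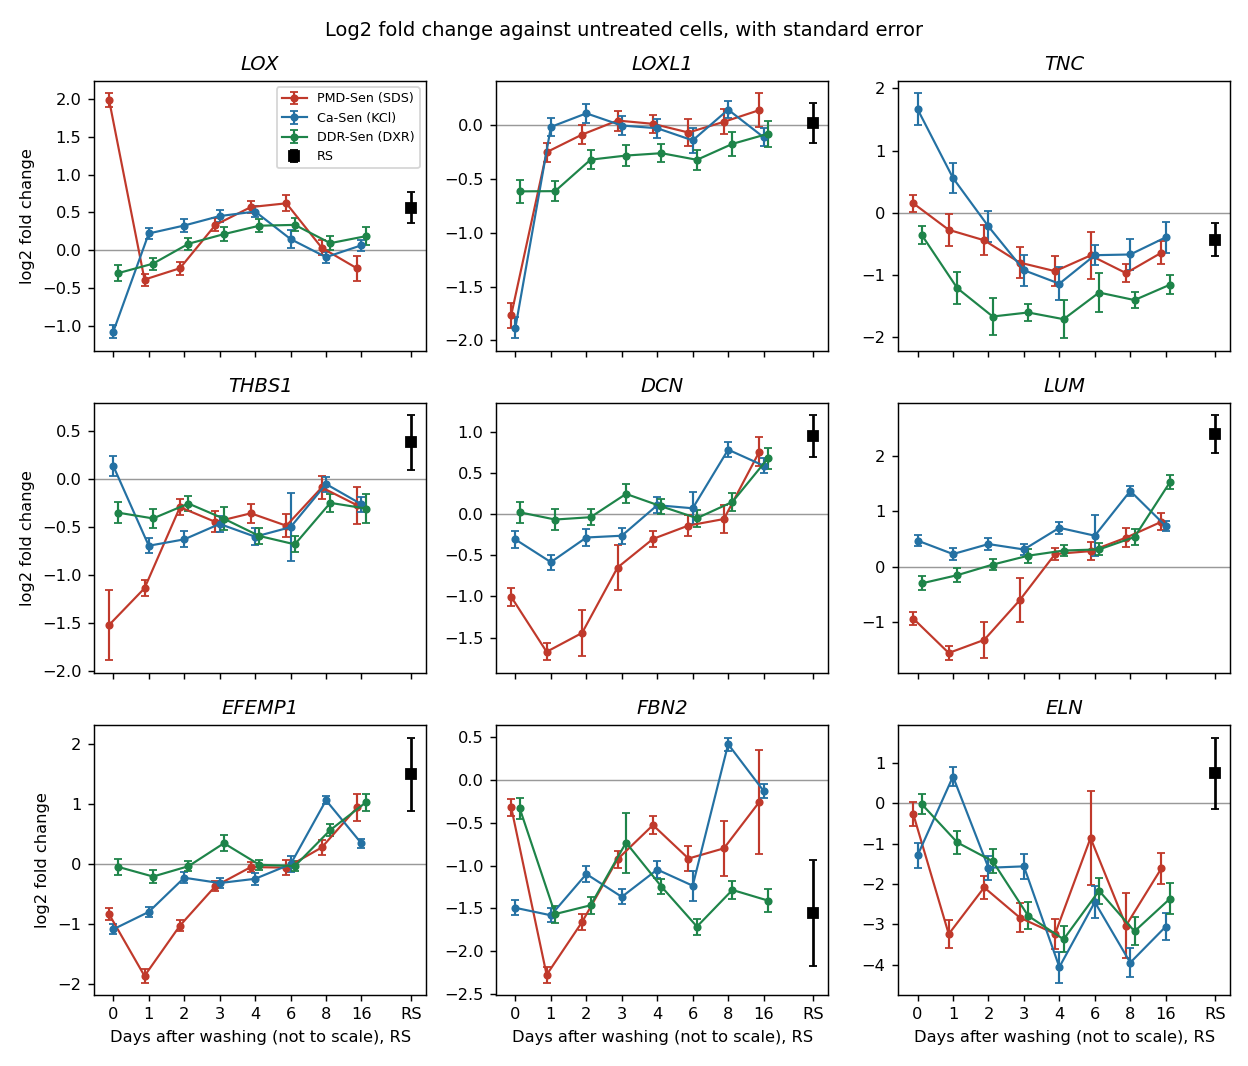
Log2 fold change against untreated cells (vertical axis, bars are SE) of 9 genes over the 8 days after SDS (red), KCl (blue) or DXR (green), days not to scale, with RS at the right as a black square. LOX stands at 1.99 on PMD-Sen D0 and TNC at 1.67 on Ca-Sen D0, and DCN, LUM and EFEMP1 dip after SDS and lie above 0 on D16 in all 3 courses.

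Among the small leucine-rich proteoglycans, decorin (DCN) and lumican (LUM) dipped after SDS and rose late. DCN was 30316 in untreated cells, and after SDS its levels were 15108, 9513, 11151, 19322, 24589, 27510.1, 29053 and 51184. It was lower on D0, on D1 (−1.67 ± 0.10, adjusted p 1.14e-54), D2 and D4, not on D3 (−0.65 ± 0.27), and higher on D16 (0.76 ± 0.18). D16 was also higher after KCl (45514, 0.59 ± 0.090) and DXR (48374, 0.67 ± 0.12), as was RS (58240.4, 0.94 ± 0.25, adjusted p 0.00184). LUM went from 3321 in untreated cells to 1124 on PMD-Sen D1 (−1.56 ± 0.13) and 5838 on D16 (0.81 ± 0.15). After KCl it was higher on D0, D2, D3, D4, D8 and D16, with 8595 on D8. It reached 9592 on DDR-Sen D16 (1.53 ± 0.12, adjusted p 2.94e-33) and 17497 in RS, 5.27 times the untreated level (2.40 ± 0.34, adjusted p 9.02e-11).

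FMOD, fibromodulin, was called higher in 15 comparisons and lower in none. It was 197 in untreated cells and 362 on PMD-Sen D0 (0.88 ± 0.25), and by D16 it was 733 after SDS (1.90 ± 0.31) and 776 after DXR (1.98 ± 0.24, adjusted p 5.04e-15). Ca-Sen reached 609.7 on D8 (1.64 ± 0.20) but 242 on D16, which was not called (0.30 ± 0.25). RS had 1046 (2.41 ± 0.78). PRELP, which links basement membranes to collagen, went both ways on D0. It was 42.6 in untreated cells, 10.7 on PMD-Sen D0 (−1.99 ± 0.71) and 130.4 on Ca-Sen D0 (1.62 ± 0.36, adjusted p 3.02e-05), and was called on no later day. ASPN was higher on Ca-Sen D0 (58.6, 4.47 ± 0.89), Ca-Sen D1 (lost without the filter on low values), DDR-Sen D16 (30.8, 3.55 ± 1.04) and in RS (44.8, 4.09 ± 1.17). BGN, biglycan, was lower in 5 comparisons and higher in none. Its untreated level of 2859.7 fell to 1387 on Ca-Sen D16 (−1.04 ± 0.32) and 1522 in RS (−0.91 ± 0.32). The SE of BGN ran from 0.18 to 0.57, so that near falls were called in one table and not in another, as −0.98 ± 0.19 on PMD-Sen D8 and −0.80 ± 0.33 on DDR-Sen D8.

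VCAN, versican, the large proteoglycan that binds hyaluronan, was highest on DDR-Sen D0 and lowest on Ca-Sen D0. It was 4976 in untreated cells and 10965 on DDR-Sen D0 (1.14 ± 0.10, adjusted p 4.04e-30), and 2655 on Ca-Sen D0 (−0.91 ± 0.084). By D16 it was lower in all 3 treatments, at 3396 after SDS (−0.55 ± 0.14), 2683 after KCl (−0.89 ± 0.087) and 3864 after DXR (−0.36 ± 0.11). Of the 7 proteoglycan genes tested, 1 was higher and 3 lower on PMD-Sen D0 (all genes, 19.8% and 20.2%), 3 were higher and 1 lower on PMD-Sen D16 (9.64% and 11.6%), and 4 were higher and 1 lower in RS (11.6% and 11.6%), ASPN among the last. Their median log2 fold change in RS was 0.94, beside 0.014 for all genes tested.

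Several small proteoglycan genes lie near each other in the genome. DCN (chr12:91140484-91183123) and LUM (chr12:91102629-91111831) are on the same strand, with KERA and EPYC beyond them. While DCN and LUM stood at 58240.4 and 17497 in RS, KERA did not exceed 2.92 and EPYC 6.00 normalised counts in any group. ASPN (chr9:92456205-92482506) has OGN, OMD and ECM2 nearby. ECM2 had its highest level, 48.5, in RS, against 13.3 in untreated cells, while OMD did not exceed 1.14. FMOD (chr1:203340628-203351758) and PRELP (chr1:203475828-203491352) lie on opposite strands, and OPTC beside them did not exceed 6.78.

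On D0 the 3 treatments were compared in pairs. Each difference was tested as a difference of log2 fold changes, and the 15 pairs of groups share the untreated libraries. Between PMD-Sen D0 and DDR-Sen D0 16 of the 35 genes differed, beside 28.7% of all genes, 14 of them lower after SDS. LOX was higher after SDS (41356 against 8458, difference 2.29 ± 0.14, adjusted p 6.04e-59) and PRELP lower (10.7 against 66.4, difference −2.63 ± 0.82, adjusted p 0.00652). Between PMD-Sen D0 and Ca-Sen D0 20 genes differed (38.7% of all genes), 11 higher and 9 lower after SDS. LOX led here as well (41356 against 4962, difference 3.06 ± 0.12, adjusted p 4.03e-130), and PRELP was lower after SDS (10.7 against 130.4, difference −3.61 ± 0.79, adjusted p 3.37e-05). Without TNXB, given only as levels of 1.47 and 81.5, 19 genes differed. Between Ca-Sen D0 and DDR-Sen D0 25 genes differed (37.1% of all genes), 20 of them lower after KCl. TNC was higher after KCl (56665 against 13926, difference 2.02 ± 0.29, adjusted p 1.14e-10) and THBS2 lower (411 against 1719, difference −2.06 ± 0.27, adjusted p 1.34e-12).

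On D1, a day chosen for this comparison after the levels were seen, nearly all genes that differed were lower after SDS. From DDR-Sen D1 21 genes differed (12.3% of all genes), 20 of them lower after SDS. ELN was the widest (28.1 against 135, difference −2.27 ± 0.45) and LOXL1 the only one higher (5141 against 4001, difference 0.36 ± 0.13). From Ca-Sen D1 15 genes differed (4.42% of all genes), all lower after SDS, again led by ELN (28.1 against 419.7, difference −3.91 ± 0.42, adjusted p 3.11e-17).

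By D16 fewer genes could be told apart. Between PMD-Sen D16 and DDR-Sen D16 the test on the DESeq2 estimates called 0 of 35, beside 0.195% of all genes, and 5 had an unadjusted p under 0.05 (FBLN1, LOX, TNC, POSTN and LUM). With the shared untreated error removed from the SE it called 2. No share of all genes was computed at an unadjusted p or with that error removed. The 95% interval of the difference lay within 1 of 0 on the log2 scale for 20 of the 35 genes, and for the others it reached further. PMD-Sen D16 and Ca-Sen D16 differed in 2 genes (2.72% of all genes), LTBP3 and, the wider, FMOD (733 against 242, difference 1.60 ± 0.40), and in 4 with that error removed. Ca-Sen D16 and DDR-Sen D16 differed in 8 (6.39% of all genes), with FBN2 the widest of those higher (10396 against 4274, difference 1.28 ± 0.16, adjusted p 1.08e-13) and FMOD of those lower after KCl (242 against 776, difference −1.68 ± 0.34).

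**Figure D5:**
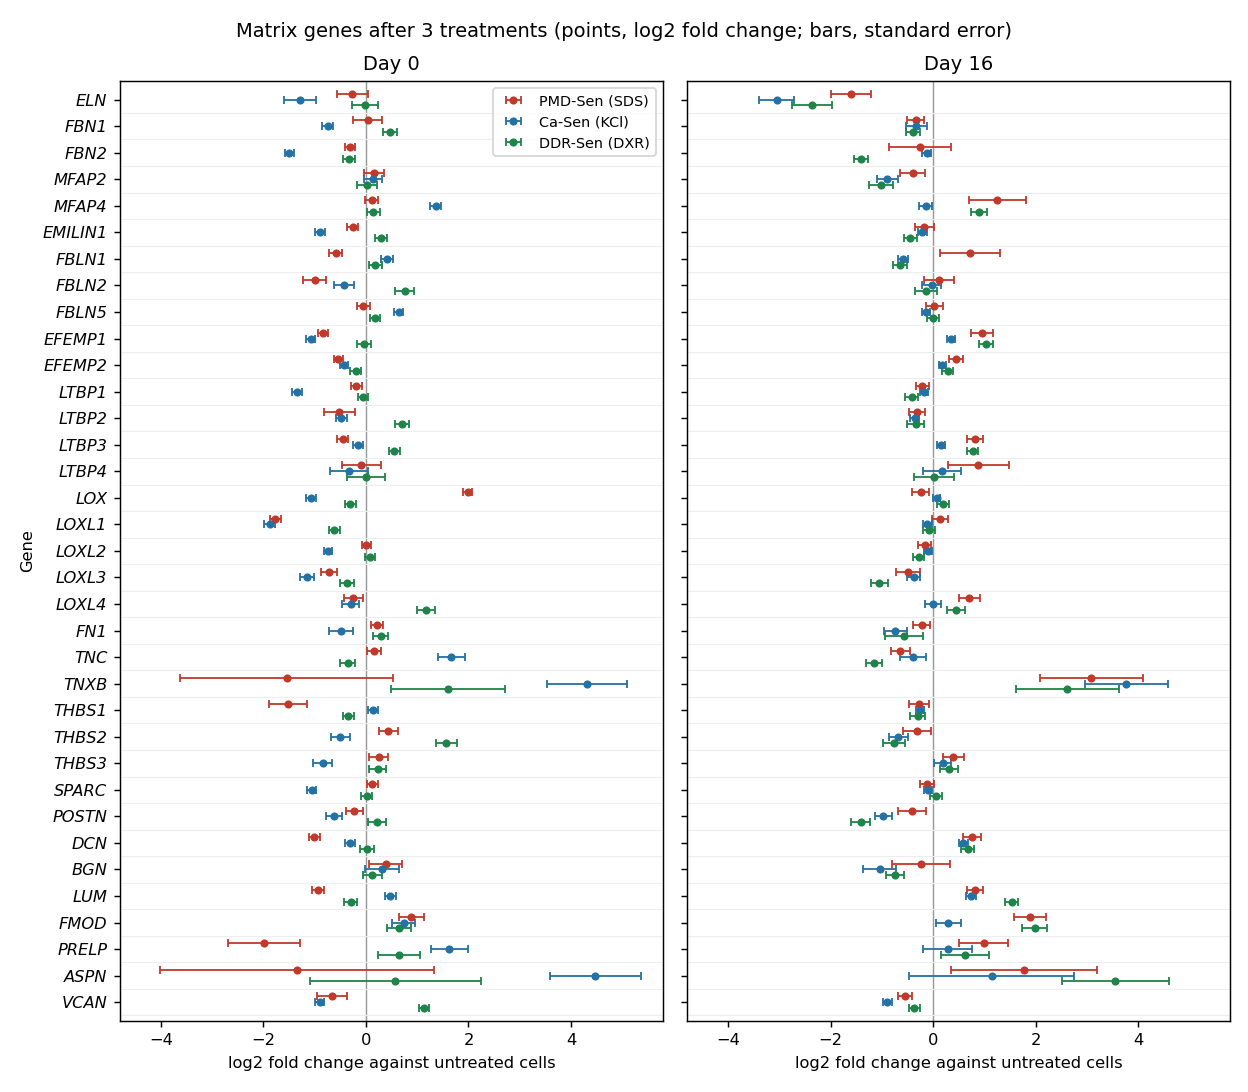
Log2 fold change against untreated cells of the 35 genes tested on D0 (left) and D16 (right) after SDS (red), KCl (blue) or DXR (green), with bars of 1 SE. On D0 LOX stands at 1.99 after SDS and −1.07 after KCl, and on D16 at −0.24 and 0.067.

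Within each course D16 differed from D0. PMD-Sen D16 differed from PMD-Sen D0 in 14 genes (28.4% of all genes), 11 of them higher on D16, with PRELP (84.4 against 10.7, difference 2.98 ± 0.85) and LOX (8839 against 41356, difference −2.23 ± 0.19, adjusted p 5.72e-30) at the ends. Ca-Sen D16 differed from Ca-Sen D0 in 21 genes (34.5% of all genes), 13 higher, with LOXL1 (5661 against 1663, difference 1.77 ± 0.13) and TNC (13567 against 56665, difference −2.06 ± 0.35) at the ends. DDR-Sen D16 differed from DDR-Sen D0 in 23 genes (12.7% of all genes), but 15 of them were lower on D16. LUM had the widest gain there (9592 against 2697, difference 1.83 ± 0.18, adjusted p 1.12e-22) and ELN the widest loss (51.6 against 261, difference −2.34 ± 0.46).

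Against RS the D16 groups differed in few genes of the set. PMD-Sen D16 differed in 1 (0.686% of all genes), LUM, which was lower after SDS (5838 against 17497, difference −1.58 ± 0.37, adjusted p 0.00728), and in 4 with the shared untreated error removed. Ca-Sen D16 differed in 5 (4.26% of all genes), with ELN the widest (31.9 against 445, difference −3.80 ± 0.95) and FBLN1 the only one higher (4872 against 2670.2, difference 0.87 ± 0.26). DDR-Sen D16 differed in 0 (0.148% of all genes) by the same test on the DESeq2 estimates, with 8 at an unadjusted p under 0.05. Here too no share of all genes was computed at an unadjusted p or with the shared error removed. The RS comparison had the largest median SE over the genes of the set, 0.27 against 0.10 to 0.21 in the other tables. Ca-Sen D8, also chosen after the levels were seen, differed from Ca-Sen D16 in 10 genes (7.17% of all genes), all higher on D8, the widest being FBLN1 (13802 against 4872, difference 1.50 ± 0.15, adjusted p 3.03e-21), and in 16 with the shared untreated error removed.

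Other genes of the same pathways were taken from lists made by function. Of all genes tested, 19.8% and 20.2% were higher and lower on PMD-Sen D0 and 11.6% and 11.6% in RS, against which the counts are to be read, and their median log2 fold change was −0.0046 on PMD-Sen D0 and 0.014 in RS. Of 9 tested genes of elastic fibres, 1 was higher and 2 lower on PMD-Sen D0 (median −0.053), and 2 were higher and 1 lower in RS (median 0.036). MFAP3, a microfibril-associated glycoprotein, rose from 947 to 1500.2 on PMD-Sen D0 (0.66 ± 0.13). HMCN1, hemicentin 1, rose from 165 to 846 in RS (2.36 ± 0.21), and FBLN7 fell from 58.4 to 18.5 on PMD-Sen D0 (−1.66 ± 0.58) and 6.64 in RS (−3.13 ± 0.92). Of 10 other matricellular genes, 4 were higher and 2 lower on PMD-Sen D0 (median 0.077), and 3 were higher and none lower in RS (median 0.17). COMP, a thrombospondin of cartilage that could be tested only through groups in which it was high, rose from 6.99 to 219 on PMD-Sen D0 (4.98 ± 1.17) and 112 in RS (3.98 ± 0.73). CCN4, a matricellular target of WNT signalling, fell from 224 to 27.0 on PMD-Sen D0 (−3.05 ± 0.36) and rose to 1408 in RS (2.65 ± 0.96).

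Of 18 other proteoglycan and hyaluronan genes, 1 was higher and 12 lower on PMD-Sen D0 (median −0.74), and 5 were higher and 3 lower in RS (median 0.025). The syndecans SDC3 (9159 to 3742, −1.29 ± 0.094) and SDC1 (2099 to 917, −1.20 ± 0.13), which span the plasma membrane, had fallen most on PMD-Sen D0. In RS GPC4, a glypican, rose from 402 to 4156 (3.37 ± 0.32) and HAS2, which makes hyaluronan, fell from 506 to 42.5 (−3.57 ± 0.36). Of 20 enzymes that build glycosaminoglycan chains, 5 were higher and 8 lower on PMD-Sen D0 (median −0.11), and 3 were higher and 2 lower in RS (median 0.14), where CHPF rose from 4871 to 11152 (1.19 ± 0.13). Of 8 integrin genes whose products bind fibronectin or microfibrils, 4 were lower and none higher on PMD-Sen D0 (median −0.39), led by ITGB8 (202 to 31.3, −2.69 ± 0.36) and ITGA8 (861 to 198, −2.12 ± 0.19). In RS 2 were higher and 1 lower (median 0.41), with ITGB5 the widest (8904 to 17672, 0.99 ± 0.21).

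Across the 26 groups the level of FBLN5 varied least, the highest being 2.04 times the lowest, followed by LOXL2 (2.20), EMILIN1 (2.28) and FBN1 (2.32). Leaving out TNXB and ASPN, ELN (27.9 times), LUM (15.6), PRELP (12.1), TNC (10.4) and EFEMP1 (10.3) varied most. The median of this ratio was 3.99 over the 35 genes and 2.56 over all genes tested.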

How the data were processed

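mRNA-seq of WI-38 cells was analysed in 26 groups of 2 libraries, grouped by the sample labels. The submitters' processing notes name Trim Galore, HISAT2, HTSeq, featureCounts and DESeq2 with GRCh38. Versions, strand setting and library kit are not given in the sources used here. The deposited files, 52 in number, hold the authors' DESeq2 results for each group set against untreated cells. In 24 conditions both files are identical and 4 files hold the RS table, which leaves 25 distinct tables. The deposited columns are a mean of normalised counts (a signal), a log2 fold change and its SE (both log2), the ratio of these (a score), and p-values, raw and adjusted. These are the authors' own comparisons, and they were used because no counts of single libraries were given, in place of a test on counts.

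The level of each side was solved from the mean and the fold change, and the tables were put on 1 scale through 8645 genes with means over 200 throughout. Genes with a mean of at least 10 over the groups were tested (14876), with Benjamini-Hochberg adjustment of the deposited Wald p-values within each table. For 2 groups, the difference of their log2 fold changes was divided by the square root of the sum of both squared SEs (two-sided normal p, adjusted over all genes tested). The error of the shared untreated libraries enters both SEs. Scripts were tested on simulated data. Library sizes were estimated from the smallest steps of the means. Positions and exon lengths (all annotated exons of a gene merged) are from the GENCODE annotation of GRCh38 and promoters from RefSeq. Figures were drawn with matplotlib 3.10.9, and values were computed with pandas 2.3.3, SciPy 1.17.1 and NumPy 2.4.6 in Python 3.11.15. The highest share of the mean counts of a table held by the 1 row that names no gene, which was left out, was 0.00223%.

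The genes and lists were chosen with earlier results of these data known. All 37 genes are accounted for, those called with a log2 fold change of 1 or more in size are described with values, and the 3 largest called rises and falls on D0, D16 and in RS are named. From each other list, genes among the 2 largest called changes on PMD-Sen D0 or in RS were named. The study describes independent samples in each group, and the p-values come from comparisons with only 2 libraries on each side. Alternatives were other scalings, a higher and no filter on low values, the deposited adjusted p, and removal of the shared untreated error. Columns of per-sample values of other samples numbered 0.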

Additional observations from a re-analysis of the deposited data

Results flagged for a closer look

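Each of the 15 differences between groups was tested, with the untreated libraries shared by both sides, and the values here are numbers of the 35 genes that differed and differences of log2 fold changes, with the share of all genes tested that differed in square brackets. On D0 PMD-Sen and DDR-Sen differed in 16 genes [28.7%], from LOX at 2.29 to PRELP at −2.63. PMD-Sen and Ca-Sen differed in 20 [38.7%], from LOX at 3.06 to TNXB, tested only through groups in which it was high, at −5.86, and Ca-Sen and DDR-Sen in 25 [37.1%], from TNC at 2.02 to THBS2 at −2.06. On D1 PMD-Sen differed from DDR-Sen in 21 [12.3%], from LOXL1 at 0.36 to ELN at −2.27, and from Ca-Sen in 15 [4.42%], with ELN at −3.91.

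On D16 PMD-Sen and DDR-Sen differed in 0 genes [0.195%] by the test on the DESeq2 estimates, with 5 at an unadjusted p under 0.05. No share of all genes was computed for counts at an unadjusted p, here or below. PMD-Sen and Ca-Sen differed in 2 [2.72%], with FMOD at 1.60, and Ca-Sen and DDR-Sen in 8 [6.39%], from FBN2 at 1.28 to FMOD at −1.68. D16 differed from D0 in 14 genes [28.4%] after SDS (PRELP 2.98, LOX −2.23), in 21 [34.5%] after KCl (LOXL1 1.77, TNC −2.06) and in 23 [12.7%] after DXR (LUM 1.83, ELN −2.34). From RS, PMD-Sen D16 differed in 1 gene [0.686%] (LUM −1.58), Ca-Sen D16 in 5 [4.26%] (FBLN1 0.87, ELN −3.80) and DDR-Sen D16 in 0 [0.148%], with 8 at an unadjusted p under 0.05 by the same DESeq2-based test. Ca-Sen D8 and D16 differed in 10 [7.17%], with FBLN1 at 1.50.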

How the results depend on the processing

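The counts of the 35 genes called against untreated cells stayed within 1.5 times in all 25 comparisons under 5 alternatives (scaling by totals, centring on the median, a mean of at least 100, no filter on low values, and the deposited adjusted p). Of 400 called log2 fold changes, none turned its direction under these settings. Without a filter on low values 38 no longer passed, with scaling by totals 15, with the deposited adjusted p 5 (EMILIN1 on PMD-Sen D0 and DDR-Sen D0, FBLN2 on Ca-Sen D0, LOXL4 on DDR-Sen D16 and THBS2 on PMD-Sen D0), and with centring on the median 3 (EMILIN1 on PMD-Sen D0, FBLN2 on Ca-Sen D0 and THBS1 on DDR-Sen D8). With a mean of at least 100 none of the 389 still tested was lost. Those lost without a filter, where more genes enter the adjustment, include ELN on Ca-Sen D1, LOX in RS, TNXB on DDR-Sen D16 and ASPN on Ca-Sen D1. The scalings shifted log2 fold changes by −0.062 to 0.030. The number of genes that differed between 2 groups moved by over 1.5 times in 5 cases. Between PMD-Sen D16 and DDR-Sen D16 it went from 0 to 1 with scaling by totals. With the shared untreated error removed, which makes the SEs smaller, it went from 0 to 2 there, from 2 to 4 between PMD-Sen D16 and Ca-Sen D16, from 1 to 4 between PMD-Sen D16 and RS, and from 10 to 16 between Ca-Sen D8 and Ca-Sen D16.

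Without TNXB and ASPN, a setting added after the data were seen, all counts stayed within 1.5 times.

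No paired analysis was possible because the tables hold no values of single libraries. Leaving out each replicate was not run for the same reason, so it could not be seen whether a call rests on 1 library. Low counts limit MFAP5, OGN, TNXB and ASPN most.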
